A study of Rattus norvegicus with 16 samples.

Results

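The transcriptome of these rat hearts was assembled from the sequencing data, and each assembled transcript carries an identifier that begins with MERGE, followed by a locus number and a transcript number. A locus was taken here as all assembled transcripts with the same locus number that had a row in each of the 16 files. Loci with at least 10 such transcripts were chosen, except MERGE.5947, MERGE.14815, MERGE.6140 and MERGE.14292. This gave 58 loci with 804 transcripts, out of 10355 assembled loci with 18489 transcripts. The other assembled loci comprised 3601 with 2 to 9 transcripts and 6692 with 1. Of the 58 loci, 19 had exactly 10 transcripts, and 31 loci just outside the limit had exactly 9. The median was 12 transcripts per locus, 8 loci had 20 or more, and the largest, MERGE.12076, had 39.

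Ribosomal-RNA-depleted total RNA from heart tissue was sequenced in 16 libraries. The WKY group (Wistar Kyoto, the normotensive control strain) had 5 rats and the SHR group (spontaneously hypertensive rat, an inbred model of high blood pressure) had 5 rats, all on double distilled water by stomach tube. In the neferine group, 6 SHR received neferine, an alkaloid of the lotus, by the same route at 10 mg/kg per day. The period was 10 weeks in every group. The neferine samples carry double distilled water as a treatment label beside neferine. The labels give neither age nor sex, the strain and the genotype carry the same name in each group, and the description of SHR 1 reads as WKY while its title and all other labels read as SHR. Titles number the animals within each group. Each rat was counted as 1 replicate, and the p-values below measure the spread between these samples.

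One gene can give many transcripts, through different start sites, alternative splicing and different ends. In heart muscle, alternative splicing is best known for the large sarcomere and calcium-handling genes, whose isoforms change as the heart matures and in disease. Short sequencing reads rarely cover a whole transcript, so a program that quantifies transcripts divides the reads of a locus among transcripts that overlap, and the sum over a locus and the division among its transcripts are separate quantities. The files pair no identifier with a gene, a position or a sequence, so the loci are named by number, the heart label was not checked against marker genes, and a locus sum here covers assembled transcripts only. The values are a deposited abundance signal on a linear scale, and the sources used here do not give its unit. The sequencing depth is unknown.

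The 804 transcripts summed to between 4651 and 7251 per WKY library (median 6036), to between 5980 and 9074 per SHR library (median 7536) and to between 5207 and 7703 per neferine library (median 6696). They made up 0.757% to 1.46% of the shared signal of a library. Of these transcripts, 17.4% to 19.8% were listed at 0 in a WKY library, 13.9% to 18.5% in an SHR library and 14.4% to 18.3% in a neferine library. The range over all libraries was 8.23% to 11.9% for the other assembled transcripts and 2.43% to 3.62% for annotated ones. The deposited rows were already selected by group means. Of the 804 transcripts, 748 had an SHR mean of at least 0.5, so transcripts found in WKY alone are mostly outside the rows compared. The libraries WKY 1, WKY 3, SHR 3 and SHR 4 stood apart from the rest of their groups. On the leading component of the values after removal of group means, which held 12% of that variance, they scored -0.295, -0.345, -0.462 and -0.305, while the other 12 libraries scored between -0.161 and 0.396.

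The sums of the 58 loci covered a wide range. The median of a locus over the 16 libraries ran from 6.85 to 1451, with a median of 31.1 and quartiles of 15.03 and 61.0. Only 8 loci had a median sum of at least 100, and 18 were under 20. The 3 loci with the highest median sums together held 41.2% to 65.4% of the sum over all 58, depending on the library. Between the highest and the lowest library, a locus sum differed 2.66-fold in the median, from 1.30-fold to 30.1-fold.

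MERGE.19247, with 12 transcripts, was among the loci with the highest median sum. Its sum was 1297, 1817, 710, 786 and 1458 in WKY 1, 3, 4, 5 and 6, and 1306, 2636, 2186, 2638 and 1444 in SHR 1, 2, 3, 4 and 6. The neferine libraries ran from 595 through a median of 1434 to 2944. The means were 1214 ± 465 (SD, n = 5) in WKY, 2042 ± 638 in SHR (n = 5) and 1493 ± 823 with neferine (n = 6), and the groups overlapped. The difference between SHR and WKY in log2(sum + 1) was 0.78 (95% interval -0.03 to 1.59, adjusted p = 0.386 by limma).

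MERGE.7466, with 35 transcripts, was also high. Its sum was 983, 887, 2005, 609 and 1209 in the WKY libraries, 1361, 1700, 1239, 1203 and 82.2 in the SHR libraries, and between 825 and 1539 with neferine. SHR 6, at 82.2, was far below the other 15 libraries, none of which was under 609. With all rows of the locus in each file, whether shared by the other files or not, SHR 6 was at 533.1. By that sum SHR 6 was still the lowest library, but WKY 5 was close to it at 609.9. The wide gap therefore holds for the shared transcripts only. MERGE.19248, with 13 transcripts, had a sum of 872 ± 239 in WKY (n = 5), 1117 ± 285 in SHR (n = 5) and 719 ± 276 with neferine (n = 6), with overlapping libraries.

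The locus with most transcripts, MERGE.12076, was lower in total. Its sum was 91.9, 25.7, 42.8, 30.3 and 91.4 in the WKY libraries and 80.05, 90.7, 89.3, 126.5 and 121.6 in the SHR libraries. The neferine libraries lay between 76.4 and 105.5. In these shared transcripts WKY 3, 4 and 5 were below every SHR and neferine library, while WKY 1 and WKY 6 lay among them. With all rows of the locus in each file the sum was 152.9, 138.2, 109.7, 93.9 and 139.9 in the WKY libraries, and 80.8, 91.5, 90.7, 127.9 and 123.4 in the SHR libraries. By that sum the strains overlapped, and SHR 1 was below every WKY library. MERGE.2507, with 27 transcripts, had a sum of 84.4 ± 38.6 in WKY (n = 5), 89.5 ± 27.8 in SHR (n = 5) and 87.7 ± 33.0 with neferine (n = 6).

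**Figure D1:**
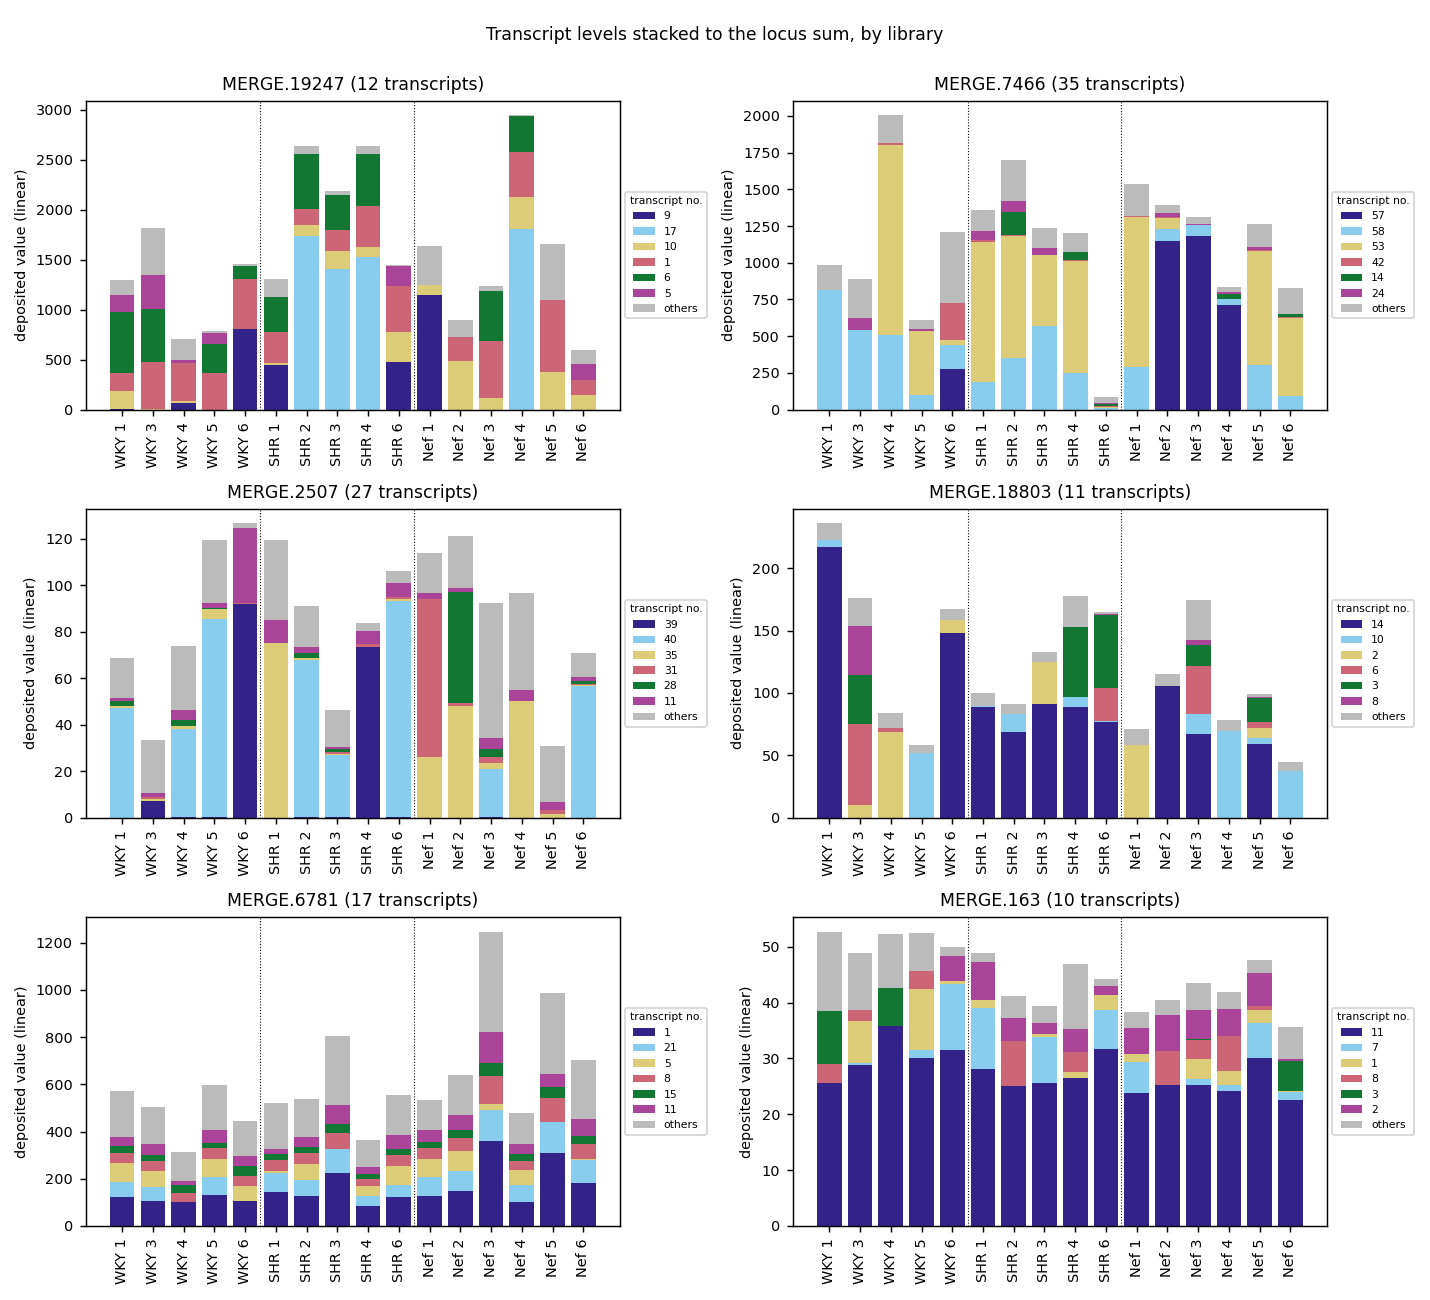
Locus sums of MERGE.19247, MERGE.7466, MERGE.2507, MERGE.18803, MERGE.6781 and MERGE.163 in the 16 libraries (vertical axis, deposited abundance, a scale for each panel). Each bar is divided among the transcripts with the highest shares, with the rest of the locus pooled. In MERGE.163 the same transcript has the highest share of every bar, while in MERGE.19247, MERGE.7466 and MERGE.2507 the transcript that fills the bar changes between libraries of the same group.

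Within a locus the signal was spread over several transcripts. The effective number of transcripts, the exponential of the Shannon entropy of the shares, had a median of 6.50 and ran from 1.93 to 16.6. The transcript with the highest share in a library, called the leading transcript, held 33.3% of the locus in the median. In 12 loci its median share was at least 50%.

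The leading transcript changed between libraries in most loci. In the median, 5 different transcripts led a locus across the 16 libraries. In 39 of 58 loci at least 4 transcripts led, in 15 loci 2 or 3, and in 4 loci (MERGE.6781, MERGE.163, MERGE.16735 and MERGE.13851) 1 transcript led throughout. The changes occurred within groups: at least 2 transcripts led in the WKY libraries of 48 loci, in the SHR libraries of 47 and in the neferine libraries of 50. In 0 loci did 1 transcript lead all WKY libraries and another lead all SHR libraries, and the same count for SHR and neferine was 0.

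MERGE.163, with 10 transcripts, kept 1 leading transcript. MERGE.163.11 was at 25.6, 28.9, 35.8, 30.0 and 31.6 in the WKY libraries, at 28.2, 25.1, 25.7, 26.5 and 31.7 in the SHR libraries, and between 22.6 and 30.1 with neferine. It led every library with a median share of 61.5% (48.6% to 71.8%), although 7 of the 10 transcripts switched between 0 and at least 1 within a group. MERGE.6781, with 17 transcripts, was led throughout by MERGE.6781.1 at a median of 23.9%, and its sum nevertheless ran from 313 in WKY 4 to 1247 in neferine 3.

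MERGE.6054 and MERGE.3282 had most leading transcripts, 9 each. In MERGE.6054, with 11 transcripts, a different transcript led each of the 5 WKY libraries, with shares of 31.5% to 88.6%. MERGE.6054.24 led 5 libraries, SHR 6 and neferine 1, 3, 5 and 6, at 52.7% to 77.9%. Over the shared transcripts this was also the locus whose sum varied most: it was 38.1, 42.0, 2.25, 20.6 and 3.65 in the WKY libraries, 28.8, 61.7, 58.04, 67.8 and 34.7 in the SHR libraries, and between 26.8 and 51.1 with neferine. The difference in log2(sum + 1) between SHR and WKY was 1.79 (SE 0.602, adjusted p = 0.125 by limma). With all rows of the locus the highest library was 5.25-fold above the lowest, in place of 30.1-fold, and the difference was 0.93 (adjusted p = 0.0898 by limma). By that sum MERGE.13223 varied most, at 19.3-fold.

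Pairs of libraries were also compared by their whole set of shares. The distance used was the percent of the locus sum that would have to move between transcripts to turn the shares of one library into those of the other. Its median over the 58 loci was 39.3% within WKY, 40.3% within SHR and 40.6% within neferine. Between WKY and SHR it was 40.7% and between SHR and neferine 40.2%. Loci of 2 to 9 transcripts had medians of 24.8%, 26.6% and 25.05% within the groups, and of 26.9% and 26.0% between them (2628 loci with a sum of at least 1 in all libraries). In 35 of 58 loci the distance between the strains exceeded the mean distance within them, with a median excess of 1.57 percentage points. The largest excess was 23.6 points, in MERGE.3282. For SHR and neferine, the distance between the groups exceeded the mean distance within them in 33 of 58 loci. These distances were not tested.

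Transcripts varied more than the loci they belong to, which summing alone favours. The coefficient of variation of a sum cannot exceed the mean of those of its parts, weighted by their levels. The coefficient of variation within groups had a median of 92.2% for the 804 transcripts and of 26.2% for the 58 locus sums (range 7.30% to 56.2%). The corresponding medians were 70.03% and 28.0% in loci of 2 to 9 transcripts, 38.9% for loci of 1 transcript and 29.2% for annotated transcripts. The variance of a sum equals the summed variance of its parts where the parts vary independently. The ratio of the 2 within groups had a median of 0.624 over the 58 loci and was under 1 in 43 of them (74.1%), against a median of 0.653 and 75.4% in loci of 2 to 9. A ratio under 1 means that transcripts of a locus moved, on balance, in opposite directions.

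The extremes of this ratio were MERGE.19219 at 0.0775 and MERGE.2263 at 6.40, named here after their values were seen. The 14 transcripts of MERGE.19219 had a median coefficient of variation of 39.8%, yet their sum lay between 44.8 and 58.2 in all 16 libraries. The 20 transcripts of MERGE.2263 varied, on balance, in the same direction, and the sum was 12.3, 10.4, 25.8, 24.8 and 31.2 in the WKY libraries, 33.3, 28.0, 11.3, 12.9 and 29.9 in the SHR libraries, and 22.7 to 34.5 with neferine. The 4 low values belong to WKY 1, WKY 3, SHR 3 and SHR 4, the libraries that stood apart over all transcripts. Their part in other results was measured by leaving them out.

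**Figure D2:**
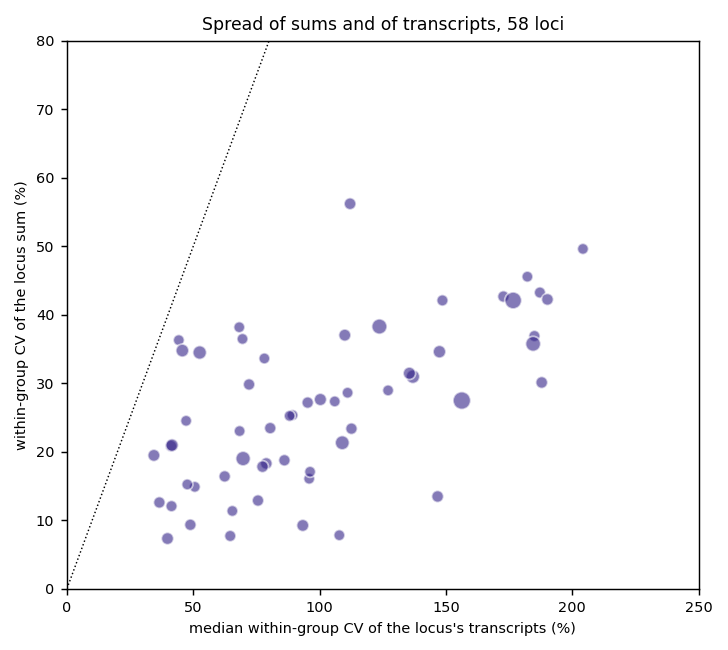
Within-group coefficient of variation of each locus sum (percent) against the median coefficient of variation of its transcripts (percent), 1 point per locus, larger for loci with more transcripts, with a dotted line where both are equal. All 58 points lie below the line, with medians of 26.2% for the sums and 92.2% over all 804 transcripts. Summing alone favours points below the line.

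Switching within a group was frequent. A transcript was counted as switching in a group where it was listed at 0 in at least 1 library and at 1 or more in at least 1 other library of the same group. This held for 221 of the 804 transcripts in WKY (27.5%), 287 in SHR (35.7%) and 256 in neferine (31.8%). The neferine group has 6 libraries against 5, which gives more chances to switch, and the selection of rows by group means favours transcripts present in SHR. Differences between these 3 counts were not tested. In all, 384 transcripts (47.8%) switched in at least 1 group, 117 of them in all 3 groups, and 53 of 58 loci held at least 1. The other 5 loci were MERGE.18165, MERGE.19219, MERGE.2172, MERGE.4154 and MERGE.8321.

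The share of switching transcripts was 42.7% in loci of 2 to 9 transcripts, 21.0% in loci of 1 and 12.5% among annotated transcripts. These classes differed most at high values. Among transcripts with a mean of at least 20 over the 16 libraries, 24 of 50 (48.0%) in the 58 loci switched, against 18.6% in loci of 2 to 9, 4.89% in loci of 1 and 1.64% of annotated transcripts. Under a mean of 1, the shares were 49.5%, 59.5%, 31.4% and 26.1%. In the 58 loci the share was between 43.1% and 50.6% at every level, while in the other 3 classes it fell from each level to the next. The classes differ in more than the number of transcripts, and the differences between them were not tested.

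**Figure D3:**
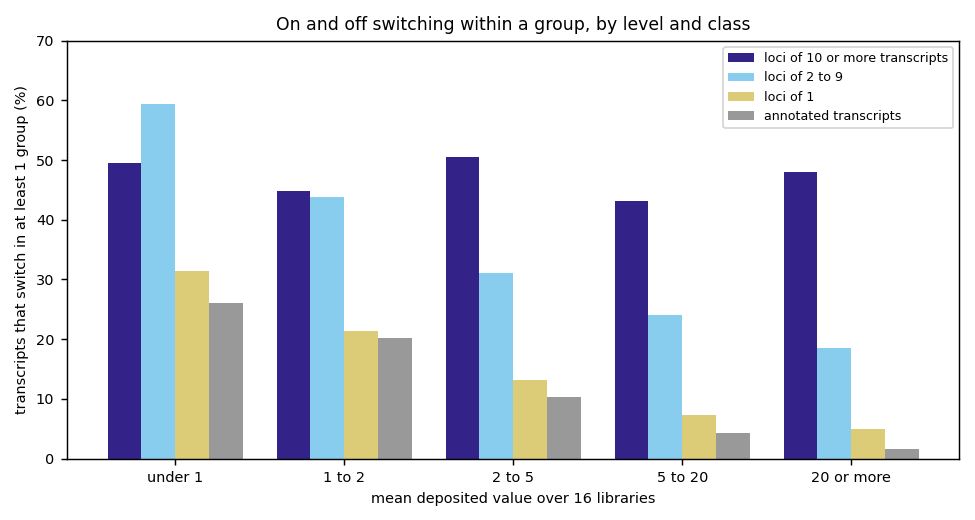
Percent of transcripts that switch in at least 1 group (vertical axis) by mean deposited value over the 16 libraries (horizontal axis, 5 levels), with a bar for each class of transcript. The bars of the loci with 10 or more transcripts stay between 43.1% and 50.6%, and the other 3 classes fall towards high values, to 18.6%, 4.89% and 1.64%.

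When a transcript switched off, the locus usually did not. Over the 764 pairs of a transcript and a group in which it switched, the locus sum in the libraries at 0 was 90.5% of that in the libraries at 1 or more, in the median. The rest of the locus was at 102%, and in 403 of the 764 (52.7%) it was higher in the libraries at 0. A switching transcript held 8.47% of its locus when on, in the median, so its loss alone would move most of these sums little. However, 118 of the 764 held at least 25%. In 95 of these 118 the rest of the locus was higher in the libraries where the transcript was at 0, with a median of 161% of its level in the others. A high share favours libraries with a low rest of the locus, so the choice of these 118 favours this pattern.

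The largest values to switch were in MERGE.19247 and MERGE.7466. MERGE.19247.17 was listed at 0, 0.0174, 0, 0.0202 and 0.0212 in the WKY libraries. In SHR it was at 0 in SHR 1 and SHR 6, and at 1740, 1405 and 1523 in SHR 2, 3 and 4, where it held 66.0%, 64.3% and 57.7% of its locus. With neferine it was at 1807 in neferine 4 and at 0 in the other 5 libraries. In the SHR libraries where it was off, the rest of the locus was at 148% of its level in those where it was on. The transcript was at 1 or more in only 4 libraries and was therefore in no test.

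MERGE.7466.57 was at 274 in WKY 6 and at 1149, 1183 and 709 in neferine 2, 3 and 4, and at 0 in the other 12 libraries, including every SHR library. In neferine 2, 3 and 4 it held 82.6%, 90.04% and 84.8% of its locus. Where it was off with neferine, in libraries 1, 5 and 6, MERGE.7466.53 led instead, at 1020, 776 and 532. MERGE.7466.53 was itself at 77.3, 0 and 0 in neferine 2, 3 and 4. The locus sum was 1180 in the mean where MERGE.7466.57 was on and 1208 where it was off. Of the 35 transcripts of this locus, 28 switched in at least 1 group.

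In MERGE.18803 all 11 transcripts switched. MERGE.18803.14 was at 217, 0, 0, 0 and 148 in the WKY libraries, at 88.6, 68.7, 91.3, 88.6 and 77.0 in the SHR libraries, and at 0, 106, 67.4, 0, 59.4 and 0 in neferine 1 to 6. It was thus on in all 5 SHR libraries and on in only some libraries of the other groups. Its share in SHR was 65.8% ± 17.5 (SD, n = 5), against 36.2% ± 49.5 in WKY (n = 5) and 31.8% ± 38.7 with neferine (n = 6). By limma the adjusted p of the share was 0.765 for SHR against WKY and 0.972 for neferine against SHR. Where it was off, MERGE.18803.2 led WKY 4 and neferine 1 at 82.0% and 82.7%, and MERGE.18803.10 led WKY 5, neferine 4 and neferine 6 at 88.6%, 88.8% and 84.1%. In WKY 3 MERGE.18803.6 led at 36.9%. All 10 transcripts of MERGE.20184 also switched.

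MERGE.20503.15 was at 26.0 in WKY 5 and 17.3 in WKY 6, where it held 80.6% and 81.3% of its locus, and at 0 in WKY 1, 3 and 4. It was at 4.53 and 26.9 in SHR 3 and SHR 6, at 7.25 and 6.64 in neferine 2 and 4, and at 0 in the remaining libraries. MERGE.20976.30 was at 0 in all 5 WKY libraries, at 130 and 93.7 in SHR 2 and SHR 3, and at 0 in SHR 1, 4 and 6. With neferine it ran from 0 through a median of 1.59 to 59.8. It held 69.3% and 85.5% of its locus in SHR 2 and SHR 3, so that here too the libraries of 1 strain were divided.

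MERGE.2507 had a transcript at the front that moved between libraries of the same strain. MERGE.2507.40 was at 47.1, 0, 38.0, 85.2 and 0 in the WKY libraries and at 0, 67.6, 26.6, 0.00699 and 93.2 in the SHR libraries. In WKY 6 and SHR 4, MERGE.2507.39 led at 92.0 and 73.6, and in SHR 1 MERGE.2507.35 led at 75.3. Elsewhere in WKY and SHR, MERGE.2507.39 did not exceed 7.27 and MERGE.2507.35 did not exceed 4.09. Of its 27 transcripts, 21 switched.

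No transcript of these loci was on in every library of 1 strain and off in every library of the other. Among the 804 transcripts, 0 were at 1 or more in all SHR libraries and at 0 in all WKY libraries, where the count over all 31042 shared transcripts was 17 (0.0548%). The reverse pattern was found in 0 of the 804 and in 3 of all (0.00966%).

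For SHR against WKY, 7 transcripts of these loci rose in level and 0 fell. They lay in 4 loci, and 4 of the 7 belonged to MERGE.12076. The test was limma on log2(value + 1), fitted on all transcripts and adjusted over all of them, and 547 of the 804 transcripts had the values it required, at least 1 in at least 5 libraries. SHR and neferine libraries together outnumber those of WKY, so this filter favours transcripts present in SHR. The selection of rows by group means does so too. Without the filter, 8 of the 804 were called, 8 higher and 0 lower, against 749 of 31042 over all (497 higher and 252 lower). With log2(value + 0.1) there were 9 higher and 0 lower. The direction of the 7 calls cannot be told apart from the selection of rows. The 7 called are 1.28% of the 547, where the share over all tested transcripts was 2.93% (1.89% higher and 1.04% lower). In all, 270 of the 547 had a higher mean log2 value in SHR and 277 a lower one. The groups did not overlap in 17 of the 547 (3.11%), against 4.45% over all transcripts. At an unadjusted p under 0.05 there were 62 of the 547 (11.3%), against 11.9% over all transcripts. Some other settings also gave lower calls: without WKY 3 there were 3 higher and 3 lower, in a fit of only these 2 groups 2 higher and 1 lower, and without SHR 2 or with median-of-ratios scaling 6 higher and 1 lower.

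MERGE.6054.25 had the largest difference among the 7. It was at 0, 0, 0.243, 0 and 0.383 in the WKY libraries and at 12.9, 26.7, 7.14, 4.32 and 8.94 in the SHR libraries. The neferine libraries ran from 3.80 through a median of 5.52 to 12.3. Every SHR and every neferine library was above every WKY library. The difference between SHR and WKY was 3.31 on the log2(value + 1) scale (SE 0.369, adjusted p = 3.24e-05 by limma). Its share of the locus was 4.25% ± 5.83 in WKY (SD, n = 5) and 26.5% ± 17.5 in SHR (n = 5) and did not pass the test (adjusted p = 0.158 by limma). As a share of all rows of the locus it was 0.829% ± 1.29 in WKY and 26.1% ± 17.1 in SHR and passed (adjusted p = 0.0157 by limma).

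MERGE.12076.35 was at 3.12, 0, 0, 0.310 and 0.414 in the WKY libraries and at 9.49, 9.39, 9.54, 12.2 and 10.1 in the SHR libraries. With neferine it ran from 5.91 through a median of 7.84 to 12.2. WKY 1 was the highest of its strain, and no WKY library reached an SHR or neferine library. The level rose by 2.88 on the log2(value + 1) scale (SE 0.320, adjusted p = 3.09e-05 by limma). Its share of the locus also rose: it was 3.40%, 0%, 0%, 1.02% and 0.453% in the WKY libraries and 11.9%, 10.3%, 10.7%, 9.64% and 8.28% in the SHR libraries (adjusted p = 0.0029 by limma).

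The other 3 transcripts of MERGE.12076, named after their values were seen, were low. MERGE.12076.66 was between 0.0460 and 0.104 in the WKY libraries and at 1.65, 1.13, 0.857, 1.64 and 1.32 in the SHR libraries, a difference of 1.09 on the log2(value + 1) scale (SE 0.137, adjusted p = 0.000123 by limma). MERGE.12076.42 was between 0.274 and 0.483 in WKY and at 1.84, 1.80, 1.10, 7.13 and 8.56 in SHR (1.62, SE 0.395, adjusted p = 0.0355 by limma). MERGE.12076.67 was listed at 0 in every WKY library and at 1.06, 2.43, 0.984, 1.14 and 0.649 in SHR (adjusted p = 0.0435 by limma). In all 3 the groups did not overlap, and in none of them did the share pass the test. The sum of the locus did not pass it either: the difference was 1.01 (SE 0.301, adjusted p = 0.0713 by limma), and with all rows of the locus it turned to -0.30 (SE 0.161, adjusted p = 0.430 by limma). Thus 4 of its 39 transcripts rose in level and 1 in share.

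In the remaining 2 transcripts, also named after their values were seen, the levels of the strains overlapped. MERGE.11974.49 was at 6.37, 0, 0, 0 and 0 in the WKY libraries and at 9.31, 0.998, 13.3, 11.6 and 11.5 in the SHR libraries. WKY 1 lay above SHR 2, so the groups overlapped (2.53, SE 0.580, adjusted p = 0.0246 by limma). MERGE.5041.15 was at 0, 0, 0.669, 0.00781 and 0 in the WKY libraries, at 3.10, 1.47, 0.619, 2.07 and 2.08 in the SHR libraries, and from 0 through 0.686 in the median to 2.18 with neferine. SHR 3 was below WKY 4 (1.31, SE 0.303, adjusted p = 0.0261 by limma). Without WKY 5 the count of 7 became 3, and without WKY 4, SHR 4 or SHR 6 it became 4.

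**Figure D4:**
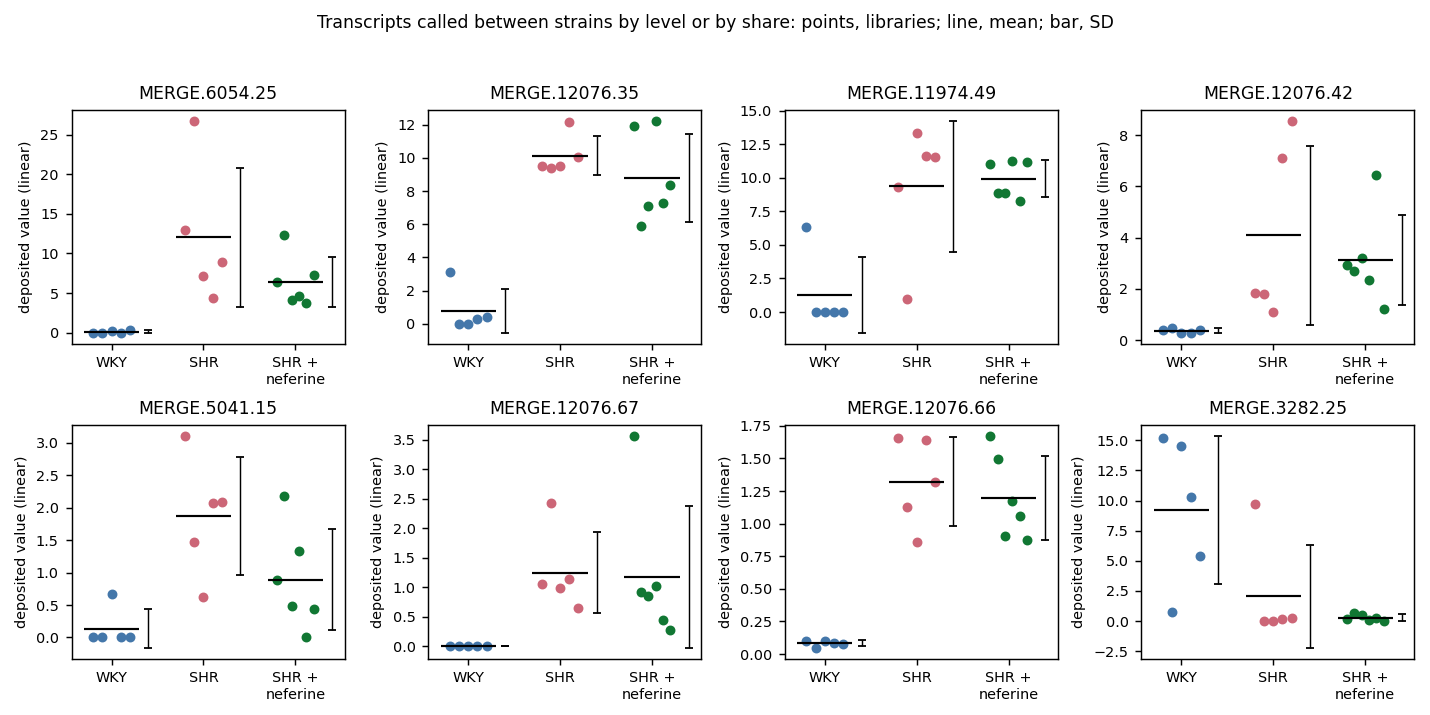
Deposited value in each library (points, with group mean and SD) of the transcripts whose level or share passed the test between SHR and WKY, by group. In MERGE.6054.25, MERGE.12076.35, MERGE.12076.42, MERGE.12076.66 and MERGE.12076.67 all SHR points lie above all WKY points, while MERGE.11974.49, MERGE.5041.15 and MERGE.3282.25 have a library that overlaps the other strain.

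The share of a transcript in its locus was tested on the arcsine of its square root, which takes shares of 0, over 7541 transcripts. Of the 547 members tested, 3 passed for SHR against WKY (0.548%), where the share over all was 0.942%. Of these, 2 were higher (0.491% over all) and 1 was lower (0.451% over all). The groups did not overlap in 12 of the 547 (2.19%), against 2.53% over all. The mean shares differed by 2.28 percentage points in the median of absolute values, from -58.5 to 43.8 points, and 161 of the 547 differed by at least 5 points.

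Besides MERGE.12076.35, the share of MERGE.5041.15 rose. It was 0%, 0%, 6.33%, 0.105% and 0% in the WKY libraries and 22.0%, 10.7%, 9.28%, 22.5% and 14.6% in the SHR libraries. The neferine libraries ran from 0% through a median of 7.49% to 16.3%. All SHR libraries were above all WKY libraries, and the neferine libraries overlapped both (SHR minus WKY 14.5 points, adjusted p = 0.0337 by limma).

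The share that fell was that of MERGE.3282.25. It was 94.8%, 11.7%, 82.9%, 84.9% and 63.3% in the WKY libraries, and 41.5%, 0.145%, 0.183%, 1.81% and 1.67% in SHR 1, 2, 3, 4 and 6. With neferine it ran from 0.275% through a median of 2.87% to 8.78%. Of the 11 SHR and neferine libraries, SHR 1 was the only one above 8.78%, and it lay above WKY 3. SHR 1 is the library whose description reads as WKY. In the values of MERGE.12076.35 and MERGE.6054.25, at 9.49 and 12.9, it lay among the SHR libraries. Both transcripts were named because the strains did not overlap with SHR 1 counted as SHR, so these values cannot check its label. The mean share fell by 58.5 percentage points, from 67.5% ± 33.2 to 9.06% ± 18.2 (SD, n = 5 each, adjusted p = 0.0296 by limma). As a share of all rows of the locus it was 46.7% ± 29.3 in WKY and 9.05% ± 18.1 in SHR and did not pass (adjusted p = 0.142 by limma). The level did not pass the test (-2.17 on the log2(value + 1) scale, adjusted p = 0.115 by limma). With SHR 1 left out, the transcript was at 1 or more in 4 libraries and was not tested, and the count of shares that passed became 1. It also became 1 without WKY 5, without SHR 6 and without the 4 libraries that stood apart.

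By the sum over the locus, 2 of 58 loci passed for SHR against WKY (3.45%), where the share over all 8664 assembled loci was 5.08% (3.59% higher and 1.49% lower). At an unadjusted p under 0.05 there were 8 of 58 (13.8%), against 13.98% over all loci. With all rows of the locus in each file there were 4 of 58, against 1282 of 8767 over all loci. MERGE.16735 was at 19.3, 28.8, 35.4, 21.6 and 27.7 in the WKY libraries and at 41.1, 40.5, 33.9, 33.9 and 44.2 in the SHR libraries. WKY 4 lay above SHR 3 and SHR 4. The sum rose by 0.55 on the log2(sum + 1) scale (SE 0.139, adjusted p = 0.0280 by limma), and the neferine libraries were at 39.4 ± 2.95 (SD, n = 6). This difference depended on which rows were summed. With all rows of the locus in each file the means were 34.0 ± 4.32 in WKY and 38.8 ± 4.72 in SHR (n = 5 each), and the difference was 0.19 (adjusted p = 0.457 by limma).

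MERGE.17523, named after its values were seen, was lower in SHR. Its sum was 102.0, 91.0, 103.8, 96.1 and 127.2 in the WKY libraries, 93.9, 77.2, 63.2, 70.8 and 83.0 in the SHR libraries, and 81.4 ± 6.99 with neferine (SD, n = 6). Only SHR 1 lay above the lowest WKY library. The sum fell by 0.42 on the log2(sum + 1) scale (SE 0.116, adjusted p = 0.0463 by limma). Both calls were near the threshold: without WKY 5, SHR 2 or SHR 6 the count of 2 became 0, and without WKY 1, WKY 4, SHR 1, SHR 3 or SHR 4 it became 1.

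The 1 locus whose sums did not overlap between the strains (1.72%, against 5.71% over all loci) was MERGE.163. Its sum was 51.3 ± 1.75 in WKY and 44.1 ± 3.93 in SHR (SD, n = 5 each), and the difference did not pass (-0.22, adjusted p = 0.245 by limma). Over the 58 loci, 33 differences were positive and 25 negative, from -1.14 to 1.79. With all rows, 5 of the 58 differences turned sign.

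**Figure D5:**
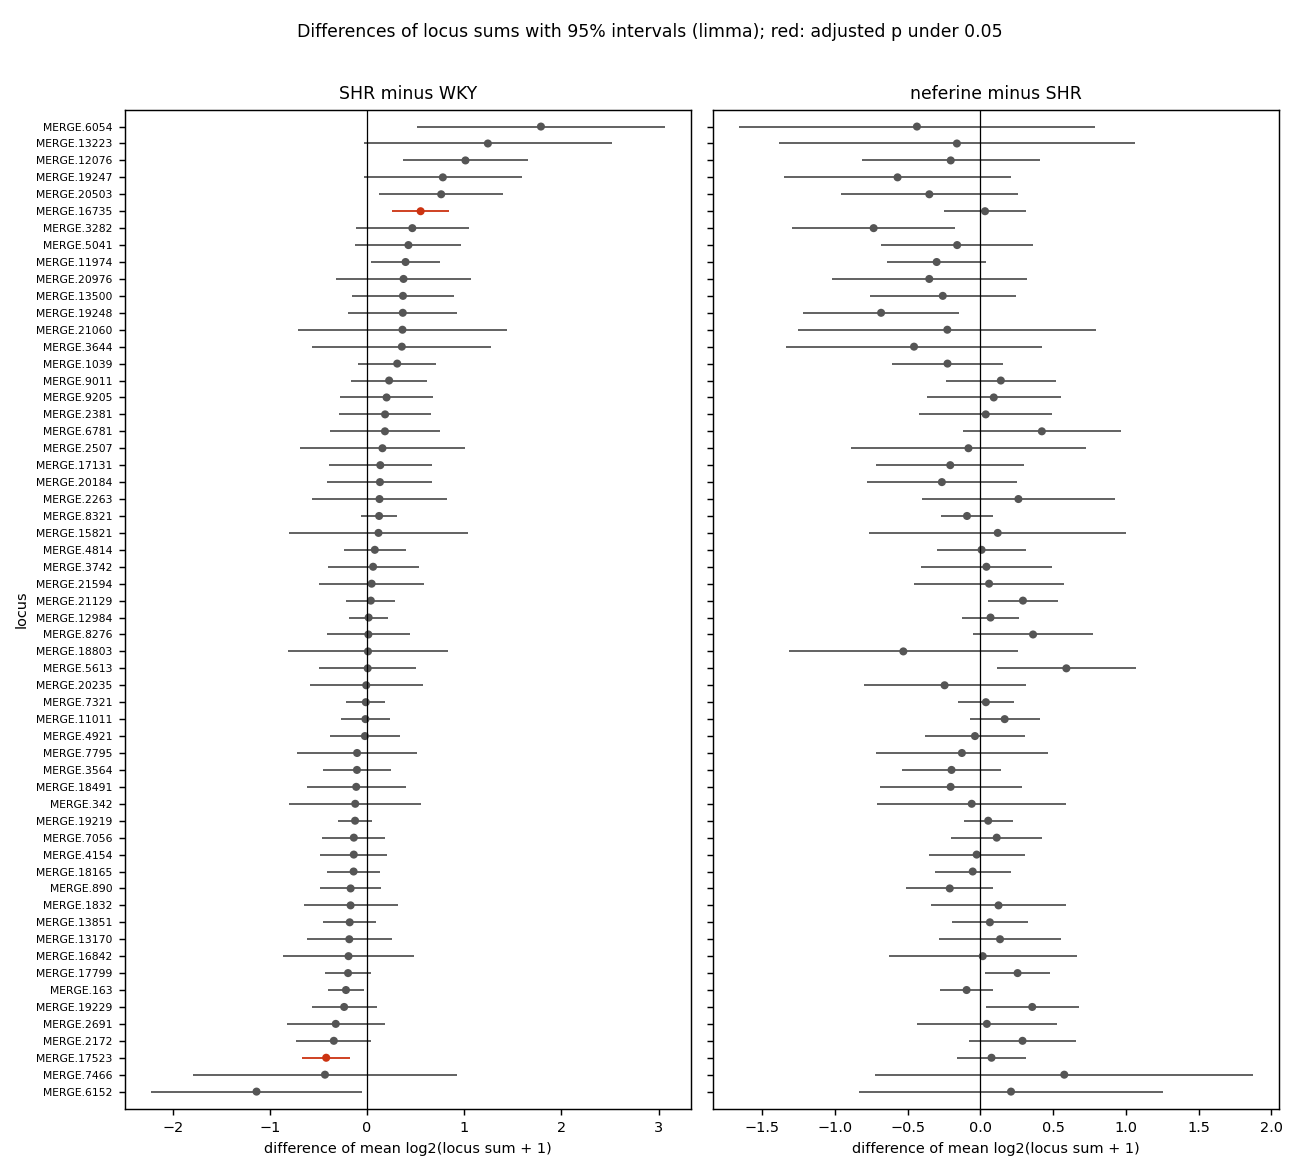
Differences of mean log2(sum + 1) of the 58 loci with 95% intervals by limma, SHR minus WKY on the left and neferine minus SHR on the right, ordered by the left panel. The 2 loci that passed, MERGE.16735 and MERGE.17523, are in red on the left, and on the right 0 loci are in red.

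The precision differed between sums and transcripts. For SHR against WKY the 95% interval lay within a 2-fold change in either direction for 45 of 58 locus sums (77.6%) and for 163 of 547 transcript levels (29.8%). The median absolute difference was 0.36 for the levels and 0.18 for the sums on their log2 scales.

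For neferine-treated against untreated SHR, no level, share or sum of these loci passed limma's adjusted threshold. The counts were 0 of 547 levels (0.00407% over all transcripts), 0 of 547 shares (0.0133% over all) and 0 of 58 sums (0% over all loci). At an unadjusted p under 0.05 there were 36 levels (6.58%, against 5.88% over all), 21 shares (3.84%, against 4.83%) and 6 sums (10.3%, against 5.51%). The 6 loci were MERGE.17799, MERGE.19229, MERGE.21129 and MERGE.5613, with higher sums, and MERGE.19248 and MERGE.3282, with lower sums. With all rows of the locus in each file there were 4 of 58 sums, against 554 of 8767 over all loci. These were the 4 with higher sums. The groups did not overlap in 2 levels (0.366%, against 0.517% over all), 0 shares (0.477% over all) and 0 sums (0.496% over all). The 2 levels were those of MERGE.17799.5, which was at 0.710 to 1.27 in SHR and 1.32 to 4.97 with neferine, and MERGE.13500.29, which was at 7.82 to 28.0 in SHR and 1.79 to 7.49 with neferine.

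The smallest unadjusted p of a level or a share belonged to MERGE.3644.25. It was at 0.0870, 1.87, 0, 0.0286 and 0.00391 in the SHR libraries and at 3.22, 2.49, 1.07, 5.52, 1.76 and 7.39 in neferine 1 to 6. SHR 2 lay among the neferine libraries, and the WKY libraries were at 0.00890, 1.62, 2.45, 0.0317 and 2.69. The difference in level was 1.69 (SE 0.451, adjusted p = 0.788 by limma). The share was 3.70% ± 7.92 in SHR (SD, n = 5) and 31.6% ± 16.2 with neferine (n = 6, adjusted p = 0.460 by limma). As a share of all rows of the locus it was 3.69% ± 7.92 and 21.1% ± 13.7 (adjusted p = 0.928 by limma). In WKY it was 9.24% ± 8.33 (n = 5).

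Among locus sums, MERGE.3282 had the smallest p. It was at 23.5, 20.7, 11.3, 11.8 and 16.8 in the SHR libraries and from 7.12 through a median of 8.31 to 14.2 with neferine, with overlap. The difference was -0.73 on the log2(sum + 1) scale (95% interval -1.29 to -0.17, adjusted p = 0.895 by limma). With all rows of the locus in each file the means were 16.9 ± 5.36 in SHR (n = 5) and 15.8 ± 3.01 with neferine (n = 6), and the difference was -0.05 (adjusted p = 0.989 by limma). The SHR and neferine files do not hold the same rows. The difference in MERGE.19248 was -0.44 in place of -0.68, and 4 of the 58 differences turned sign. With the shared rows, of the 58 loci, 29 had a higher and 29 a lower mean log2 sum with neferine, and the differences ran from -0.73 to 0.59. The 95% interval lay within a 2-fold change of sum + 1 for 45 of 58 sums and of value + 1 for 185 of 547 levels (33.8%). The mean shares differed by 1.74 percentage points in the median of absolute values, from -34.1 to 30.5. A miss of the threshold does not show that the groups are alike.

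For the transcripts called between the strains, the neferine values stand beside the SHR values, which both comparisons share. MERGE.12076.35 held 10.2% ± 1.32 of its locus in SHR (SD, n = 5) and 10.2% ± 3.16 with neferine (n = 6). MERGE.6054.25 was at 12.01 ± 8.80 in SHR and 6.42 ± 3.19 with neferine, and MERGE.5041.15 at 1.87 ± 0.912 and 0.888 ± 0.778. By limma the adjusted p of the level for neferine against SHR was 0.937, 0.836 and 0.834 for these 3 transcripts.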

How the data were processed

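Values for 16 rat heart libraries were used, 1 file each. The authors deposited a normalised abundance signal per transcript on a linear scale. The sources used here do not give its unit, nor the genome build, annotation, aligner or quantifier, and limma is named without a role in the submitters' processing notes. The rows had been selected by group means before deposit, and depth is unknown, so no counting interval is given.

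Only rows present in all 16 files were used (31042). The following quantities were tested in R 4.3.3 by limma 3.58.1, using its variance trend: log2(value + 1) of 24577 transcripts, the arcsine of the square root of the share of 7541 transcripts in loci of at least 2 with a sum of at least 1 in all libraries, and log2(sum + 1) of 8664 assembled loci. Features under 1 in more than 11 libraries were left out. The 3 groups shared 1 fit, with Benjamini-Hochberg adjustment over all features and a threshold of 0.05. The tests were tried on simulated data.

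Groups came from the labels. Named items were, for each comparison and direction, up to 2 that passed, did not overlap and reached a mean of 1 in whichever group was higher, ranked by difference, or else the smallest p. For loci they were those with most transcripts, highest sums, and most or fewest leading transcripts, and for switching the highest shares when on. The members, lists and rules were chosen with earlier results of these data known. The reference table of gene names matched 0 identifiers, so no gene, position or sequence is given.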

Additional observations from a re-analysis of the deposited data

Results flagged for a closer look

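Among the loci and transcripts named above, 108 groups of locus sums, transcript values or shares were compared with Dixon's limit for a single sample far from the others. Of these, 19 exceeded it, and all 19 were values or shares of transcripts. Chance gives about 1 in 20 groups, and transcripts that switch on in 1 library exceed it by their nature. No explanation was tested.

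Of the 19, 8 belonged to the transcripts chosen for their high shares when on. MERGE.19247.17 was at 1807 and 61.4% of its locus in neferine 4, with the other neferine libraries at 0. MERGE.7466.57 was at 274 and 22.7% in WKY 6, with the other WKY libraries at 0. MERGE.20503.15 was at 26.9 and 75.6% in SHR 6, and the next SHR library was at 4.53. MERGE.20976.30 was at 59.8 and 65.0% in neferine 4, and the next was at 17.4.

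Among the transcripts tested, MERGE.3282.25 was at 9.74 and 41.5% in SHR 1, while the other SHR libraries did not exceed 0.281 and 1.81%. MERGE.11974.49 was at 6.37 in WKY 1 and at 0 in the other WKY libraries. MERGE.12076.35 was at 3.12 in WKY 1, with the others at 0.414 or less, and at 12.2 in SHR 4, with the others between 9.39 and 10.1. MERGE.12076.67 was at 2.43 in SHR 2 and at 3.57 in neferine 1. MERGE.5041.15 was at 0.669 and 6.33% in WKY 4. MERGE.3644.25 was at 1.87 and 17.9% in SHR 2.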

How the results depend on the processing

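Of the named differences, 1 changed direction: the sum of MERGE.12076 between the strains, 1.01 over shared rows, was -0.30 with all rows of each file. For SHR against WKY, a fit of only the groups compared called 3 levels, 1 share and 0 sums, in place of 7, 3 and 2. With the replicate number as a block the counts were 4, 1 and 0. The labels number the animals within each group and give no pairing. The correlations of same-numbered libraries lay between -0.0732 and 0.122 for SHR and WKY and between -0.0229 and 0.0286 for neferine and SHR. A library correlated best with its own number in 2 of 4 and 0 of 5 cases. These few cases do not decide whether the numbers mark a pairing. Leaving out 1 library at a time gave 3 to 7 levels, 1 to 3 shares and 0 to 3 sums. Without the 4 libraries that stood apart, chosen after seeing the data, 1 share and 1 sum were called. With all rows summed, 1 sum was called, and with shares of all rows, also chosen after seeing the data, 4 shares. The cause of these changes was not tested.

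In every alternative run, 16 for each level and 17 for the share, the levels of MERGE.12076.35 (adjusted p 5.19e-08 to 0.00114) and MERGE.6054.25 (4.58e-06 to 0.00067) and the share of MERGE.12076.35 (0.00056 to 0.0336) stayed past limma's threshold, as did the level of MERGE.12076.66 in 15. The other named calls lost it in some: MERGE.11974.49 in 9 of 16 alternatives, MERGE.12076.42 in 10 of 16, MERGE.12076.67 in 7 of 10, MERGE.5041.15 in 9 of 15 for level and 10 of 15 for share, the share of MERGE.3282.25 in 7 of 10, MERGE.16735 in 9 of 17 and MERGE.17523 in 11 of 17. For neferine against SHR the counts were 0 in every alternative run. Counting a transcript as on from a value of 5 gave 114 switching transcripts in WKY, 121 in SHR and 123 in neferine. Without SHR 3 and SHR 4, 189 switched in SHR. Depth is unknown, and the number of rats limits the precision.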
